A study of Mus musculus with 2 samples.

Results

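The 4 genes described here are Agtr1a and Agtr1b, which encode the type 1 angiotensin II receptors, and Dab2 and Vsnl1, which mark the zona glomerulosa of the adrenal cortex. They were chosen by gene name, and are 4 of 18168 mouse genes with a read in either library. Long-read RNA sequencing was run on total RNA of whole adrenal gland from male mice of the hybrid strain B6CASTF1/J, a cross of C57BL/6 and CAST/EiJ, aged 25 days. The labels give 2 libraries of 1 group and name no treatment or mutation, so there was no condition to compare. It is not clear that these came from separate animals: the libraries are described as from 1 mouse, the tissues as from different mice. A p-value between libraries therefore asks only whether these libraries differ beyond counting error, and such a difference may be technical. It measures neither the size of the difference nor the spread between animals.

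The zona glomerulosa is the outermost layer of the adrenal cortex and makes aldosterone, the hormone that makes the kidney retain sodium. Angiotensin II binds the type 1 receptor on glomerulosa cells, which acts through the G protein Gq, phospholipase C and calcium to switch on aldosterone synthesis. Rodents carry a pair of genes for this receptor, where humans have a single one. Dab2 is an endocytic adaptor that couples cargo receptors of the LDL receptor family to clathrin and AP-2. Vsnl1 (visinin-like protein) is a calcium sensor of the neuronal calcium sensor family.

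Replicate 1 held 752432 reads in annotated mouse genes and replicate 2 held 1210671. Levels are reads per 1000000 of these gene reads (CPM), and a count of 0 allows up to 3 reads, or 3.99 and 2.48 CPM in replicates 1 and 2. The libraries stood apart in the whole table. Of 11382 genes with 10 or more reads over the libraries, 2876 (25.3%) were lower and 1307 (11.5%) higher in replicate 2 at an adjusted p under 0.05. The median log2 ratio was -0.34. With the trimmed-mean (TMM) scaling of edgeR, under which a log2 ratio of -0.35 counts as no change, the split was 1563 lower and 2015 higher. Markers of other tissues moved too. The summed level of 12 hepatocyte markers was 796 CPM in replicate 1, of which Pck1, also made in fat, gave 789, and 8 of the 12 were at 0. The same 12 summed to 52788 CPM in replicate 2, with Alb at 2.66 and 18131 CPM and Apoa1 at 0 and 4142 CPM. For 12 skeletal muscle markers the sums were 4306 and 5.78 CPM, with 10 of the 12 at 0 in replicate 2. Reads of replicate 2 also lay in shorter models, of mean length 2206 bases against 2614. The part of these differences in the results below was not tested, except where a value is given.

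Both receptor genes have a coding region of 1077 bases in a single exon, and the coding regions were identical at 90.8% of bases. Of the 99 bases that differ, 74 are the last base of a codon, and the longest identical run was 66 bases. The first 90 coding bases of each, from the reference transcripts Agtr1a-201 and Agtr1b-201 of GENCODE M21, are shown to make clear how a long read tells the paralogs apart. Capitals mark the 8 positions at which they differ.
Agtr1a: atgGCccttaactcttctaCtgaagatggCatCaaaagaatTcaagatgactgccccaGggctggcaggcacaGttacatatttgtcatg
Agtr1b: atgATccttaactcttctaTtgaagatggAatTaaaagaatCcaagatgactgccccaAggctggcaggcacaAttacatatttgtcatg

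Agtr1a (ENSMUSG00000049115.15, mm10 chr13:30336441-30382867, plus strand) was the receptor gene with the most reads. It had 242 reads in replicate 1 and 61 in replicate 2, or 322 CPM (95% exact binomial interval 282 to 365) and 50.4 CPM (38.5 to 64.7). The intervals did not overlap. The mean was 186 ± 192 CPM (SD, n = 2). Among genes with a read, it ranked 490 of 15242 in replicate 1 and 3591 of 16852 in replicate 2. The log2 ratio of replicate 2 to replicate 1 was -2.67 ± 0.21 (counting SE; adjusted p = 1.1e-47, Fisher's exact test over all genes), and -2.32 with TMM scaling.

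Agtr1b (ENSMUSG00000054988.9, mm10 chr3:20314473-20367177, minus strand) was close to the limit of detection. It had 8 reads in replicate 1 (10.6 CPM, 4.59 to 20.9) and 4 in replicate 2 (3.30 CPM, 0.900 to 8.46). The mean was 6.97 ± 5.18 CPM (SD, n = 2). The intervals overlapped, and the log2 ratio of -1.60 ± 0.84 missed the threshold (adjusted p = 0.148, Fisher's exact test over all genes). Agtr1a had 30.3 times as many reads as Agtr1b in replicate 1 (exact interval 15.1 to 70.9) and 15.3 times as many in replicate 2 (5.66 to 57.8). Per kilobase of model length the ratio was 29.8 and 13.2. The ratio between the receptors, which does not depend on the scaling, did not differ between libraries beyond counting error (p = 0.278, adjusted p = 0.325 over 7 such ratios, Fisher's exact test).

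Dab2 (ENSMUSG00000022150.16, mm10 chr15:6299788-6440712, plus strand) showed the widest gap of the 4 genes. It had 468 reads in replicate 1 (622 CPM, 567 to 681) and 48 in replicate 2 (39.6 CPM, 29.2 to 52.6), ranking 184 and 4319. The mean was 331 ± 412 CPM (SD, n = 2). Its log2 ratio was -3.96 ± 0.22 (adjusted p = 1.6e-135, Fisher's exact test over all genes), and -3.61 with TMM scaling. A ratio as low or lower was seen in 45 of 11382 genes (0.395%), Dab2 included. Genes with long transcripts were lower in replicate 2 in general. The median log2 ratio was -0.69 for the 1230 genes whose leading known transcript is 4000 to 5000 bases long, as that of Dab2 is, and 0.28 for the 1042 genes at or below 1000 bases. Of those 1230 genes, 6 were as low as Dab2. The matching median for the 2657 genes of 2000 to 3000 bases, the class of Agtr1a, was -0.40.

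Vsnl1 (ENSMUSG00000054459.8, mm10 chr12:11325242-11436613, minus strand) had 20 reads in replicate 1 (26.6 CPM, 16.2 to 41.1) and 13 in replicate 2 (10.7 CPM, 5.72 to 18.4). The intervals overlapped, and the mean was 18.7 ± 11.2 CPM (SD, n = 2). Its log2 ratio of -1.29 ± 0.51 passed the threshold (adjusted p = 0.0333, Fisher's exact test over all genes), but not with TMM scaling, where it was -0.94 (adjusted p = 0.181, Fisher's exact test). Of the 4 genes, 3 were thus called lower in replicate 2, beside 25.3% of all genes tested.

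**Figure D1:**
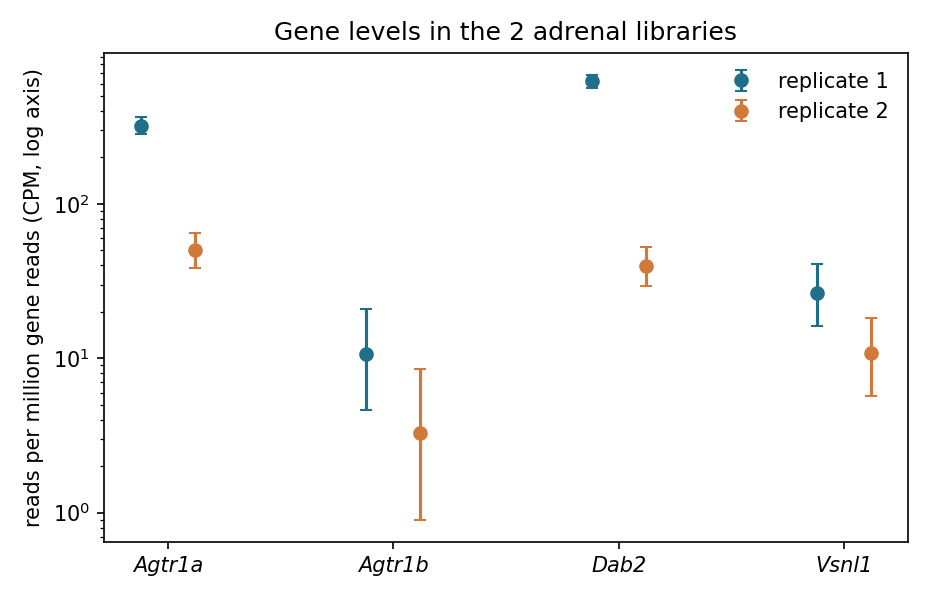
Reads per 1000000 gene reads (CPM, log axis) of the 4 genes in replicate 1 and replicate 2. Points are single libraries and bars are 95% exact binomial intervals for counting error. The intervals of Agtr1a (322 and 50.4 CPM) and Dab2 (622 and 39.6 CPM) do not overlap between libraries, and those of Agtr1b and Vsnl1 do.

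Per kilobase of mean model length, Dab2 and Agtr1a stood level in replicate 1, at 152 and 147 CPM per kilobase, with a ratio of 1.03 (0.879 to 1.21). Agtr1a was above Dab2 in replicate 2, at 24.4 and 14.2 CPM per kilobase, with a ratio of Dab2 to Agtr1a of 0.581 (0.390 to 0.862). In reads, Dab2 was 1.93 times Agtr1a in replicate 1 (1.65 to 2.27) and 0.787 times in replicate 2 (0.528 to 1.17). This ratio differed between libraries (adjusted p = 3.0e-05 over 7 ratios, Fisher's exact test). Vsnl1 came next, at 14.8 and 6.57 CPM per kilobase. Agtr1b was lowest, at 4.95 and 1.85 CPM per kilobase, and the ratio of Vsnl1 to Agtr1b per kilobase was 2.98 (1.26 to 7.83) and 3.55 (1.10 to 14.9). Dab2 and Agtr1a thus did not differ per kilobase beyond counting error in replicate 1 and did in replicate 2. In reads the reverse held: they differed in replicate 1 and not in replicate 2. A long read counts once whatever the length of its transcript, so the ratios in reads need no division by length. The order per kilobase depends on that division. The mean model length used was 4099 and 2800 bases for Dab2 and 2181 and 2068 for Agtr1a in replicates 1 and 2. The lengths are those of the deposited models, and known models carry annotated ends. The lower places rested on few reads: with known models alone, Vsnl1 to Agtr1b in replicate 1 was 2.25 in reads (0.931 to 5.98) and Dab2 to Vsnl1 in replicate 2 was 1.73 (0.781 to 4.02), and neither then differed beyond counting error.

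The enzyme that defines the zone, Cyp11b2 (aldosterone synthase), was set beside them in reads, not per length. It had 466 reads in replicate 1 and 309 in replicate 2. Against Agtr1a this was 1.93 times (1.65 to 2.26) and 5.07 times (3.84 to 6.78), and the ratio differed between libraries (adjusted p = 1.4e-09 over 7 ratios, Fisher's exact test). Against Dab2 it was 0.996 times (0.874 to 1.13) and 6.44 times (4.74 to 8.92; adjusted p = 1.2e-35). In bulk tissue, fewer cells of a type and less RNA per cell cannot be told apart.

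The other 10 zona glomerulosa markers listed were all detected in both libraries. Of the 9 tested, 4 were lower in replicate 2 and 0 higher (25.3% and 11.5% over all genes), with a median log2 ratio of -1.17 beside -0.34 for all genes. The potassium channel gene Kcnk3 was at 2318 and 838 CPM (log2 ratio -1.47 ± 0.06). Cyp11b2 was at 619 and 255 CPM (-1.28 ± 0.11), and Lef1, a Wnt effector, at 26.6 and 5.78 CPM (-2.14 ± 0.62). The 3β-hydroxysteroid dehydrogenase gene Hsd3b6, whose close paralogs make its count uncertain, was at 67.8 and 37.2 CPM (-0.86 ± 0.29). Wnt4, a signal that maintains the zone, was at 275 and 224 CPM and missed the threshold (adjusted p = 0.0687, Fisher's exact test over all genes). Agtr1a (-2.67 ± 0.21) and Dab2 (-3.96 ± 0.22) lay below each of these 9 tested genes in log2 ratio, but Agtr1a and Lef1 overlapped within their counting SE. A ratio as low as that of Agtr1a was seen in 1.22% of all genes tested. Of the X-zone markers below, Akr1c18 (-2.99 ± 0.10) and Pik3c2g (-2.76 ± 1.02) lay lower than Agtr1a, and Thrb (-1.39 ± 0.59) did not. Of 4 zona fasciculata markers, 3 were lower in replicate 2, with a sum of 15174 and 4624 CPM carried by Cyp11b1 (11342 and 3364 CPM), and the ACTH receptor gene Mc2r was not called (39.9 and 55.3 CPM). Of 3 X-zone markers, 2 were lower, with a sum of 1591 and 205 CPM, nearly all of it Akr1c18 (1558 and 196 CPM). Of 12 chromaffin and neuronal genes of the medulla, 10 were tested, with 8 lower and 0 higher, and the list summed to 11624 and 7870 CPM. Because Dab2 is also made by macrophages and stromal cells, their lists are given beside it. The 12 macrophage markers summed to 392 and 441 CPM, with 0 of 11 tested genes lower and 1 higher, the Kupffer cell gene Clec4f (0 and 24.0 CPM). The 10 capsule and stroma markers summed to 1470 and 1118 CPM, with 5 of 8 tested lower and 0 higher. The highest, Col3a1, was at 720 and 668 CPM and was not called. The next, Dcn (245 and 155 CPM) and Col1a1 (241 and 157 CPM), were lower.

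Of the other 18 genes of the renin-angiotensin system, 13 could be tested, with 3 lower and 1 higher in replicate 2 and a median log2 ratio of -0.46. The lower count is close to the 25.3% of all genes called lower. The one that was higher was Agt, the angiotensin precursor that hepatocytes secrete, at 6.65 CPM (5 reads) and 402 CPM (487 reads). Its log2 ratio of 5.78 ± 0.62 moved with the hepatocyte markers above. Ren1, which encodes the protease renin, had 2 reads in each library, and Ace, the angiotensin-converting enzyme, had 5 and 1. The type 2 receptor gene Agtr2 had 17 and 20 reads (22.6 and 16.5 CPM), and its log2 ratio of -0.46 ± 0.47 missed the threshold. The receptor-associated protein gene Agtrap was lower (58.5 and 18.2 CPM). The peptidase genes Prep (166 and 76.0 CPM) and Thop1 (150 and 87.6 CPM) were lower too. The prorenin receptor gene Atp6ap2 was at 98.3 and 106 CPM and missed the threshold. Cma1 and Ctsg, the proteases of mast cells and neutrophils, were at 0 in both.

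Downstream of the receptor, 37 of 45 genes of Gq and calcium signalling were tested, with 14 lower and 2 higher in replicate 2 (25.3% and 11.5% over all genes) and a median log2 ratio of -0.62. The lower genes included the G protein Gna11 (190 and 107 CPM) and the phospholipase Plcb3 (71.8 and 20.6 CPM). The list also holds Gna12 and Gna13, whose G proteins are of another class than Gq. Gna12 was lower (324 and 87.6 CPM) and Gna13 was not called (17.3 and 33.0 CPM). Gnaq, the gene of the Gq subunit itself, was not called (6.65 and 9.91 CPM). Of the phospholipases, Plcb1 (19.9 and 16.5 CPM) and Plcb4 (9.30 and 2.48 CPM) were not called either. The higher genes were Nr4a1, an early-response nuclear receptor (17.3 and 112 CPM), and Grk2, a receptor kinase (27.9 and 52.0 CPM). Plcb2, Camk2a and Kcnj5 were at 0 in both libraries.

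In the neuronal calcium sensor family, to which Vsnl1 belongs, 11 of 13 genes had a read in replicate 1 and 9 in replicate 2. Its relative Ncald was at 152 and 35.5 CPM and was lower in replicate 2. Kcnip3 was lower as well (17.3 and 4.96 CPM), and Hpcal1 was not called (26.6 and 20.6 CPM). Of the 39 genes listed as clathrin adaptors or partners of Dab2, 32 were tested, with 17 lower and 0 higher (25.3% and 11.5% over all genes) and a median log2 ratio of -0.84. With TMM scaling the count was 9 lower and 3 higher. The AP-2 subunit genes Ap2a1 (237 and 76.8 CPM), Ap2a2 (153 and 109 CPM) and Ap2m1 (161 and 85.1 CPM) were lower. The clathrin light chains Clta (78.4 and 99.1 CPM) and Cltb (82.4 and 102 CPM) and the signalling adaptor Grb2 (104 and 92.5 CPM) missed the threshold. The endocytic receptor genes Lrp2 and Cubn, partners of Dab2 in the kidney, were at 0 in both.

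**Figure D2:**
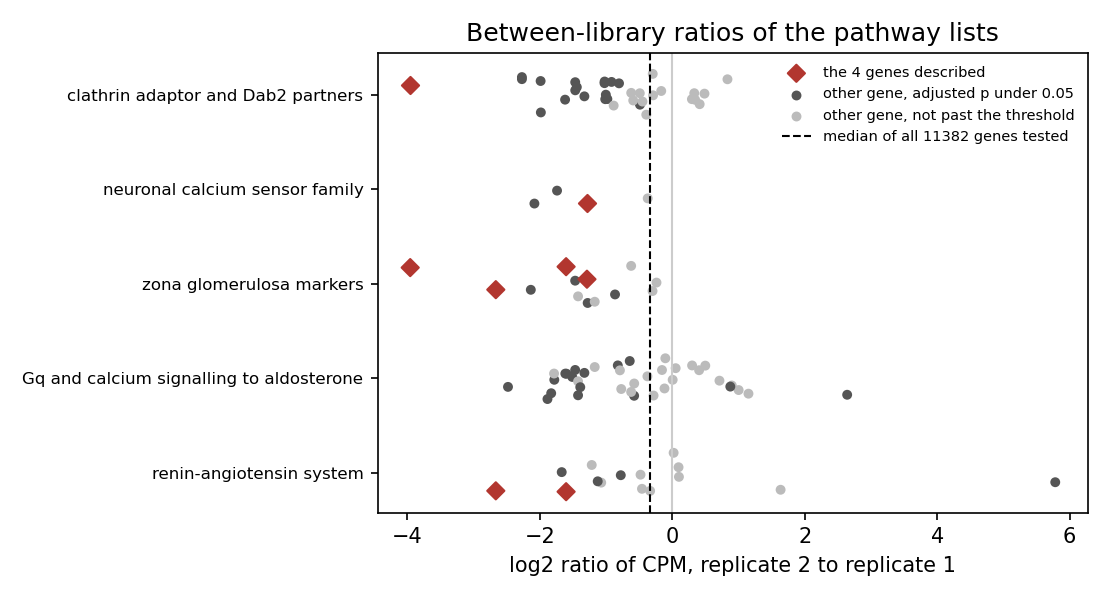
Log2 ratio of CPM, replicate 2 to replicate 1, for every tested gene of 5 pathway lists (rows; vertical scatter within a row has no meaning). Red diamonds are Agtr1a, Agtr1b, Dab2 and Vsnl1, dark points other genes past the threshold, and the dashed line is the median of 11382 genes (-0.34). Dab2 (-3.96) and Agtr1a (-2.67) lie at the low end, and Agt (5.78) at the high end.

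The genes nearest in level over the 2 libraries were ranked by Euclidean distance in log2(CPM + 1). Only the 9408 genes with at least 20 reads over the libraries were ranked. For Agtr1a the nearest were Lrp10, Tpm1 and Ubqln4 (distance 0.27 to 0.35). For Dab2 the nearest was Agtr1a itself, at a distance of 1.01, followed by Srxn1 and Il4ra. For Agtr1b the nearest ranked were Pm20d2, Armc7 and Unkl (0.88 to 0.89). Agtr1b itself, with 8 and 4 reads, fell below the minimum of 20. Genes at its own level were therefore not ranked, and this distance reflects the minimum. Vsnl1 had 117 genes within 0.25, and Tmem79, Ccdc97 and Ubr3 had the same read counts, so 2 libraries do not set it apart at this depth.

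The deposited models class each read by its splice structure: known, incomplete splice match (ISM, part of a known chain), new combinations of known sites (NIC), chains with a new site (NNC) and genomic (in these 4 genes, single-exon models). Known models held 88.4% of Agtr1a reads in replicate 1 and 68.9% in replicate 2, and 78.2% and 39.6% of Dab2 reads. Genomic reads made up 21.3% of Agtr1a reads and 16.7% of Dab2 reads in replicate 2, and 0 of the reads of either in replicate 1. The class of similar structures differed between libraries. Single-exon models in the Agtr1a coding exon were classed ISM in replicate 1 (11 reads) and genomic in replicate 2 (13 reads). So were those in the last exon of Dab2 (7 ISM and 6 genomic reads). Over all genes, known models held 77.0% and 75.6% of reads, ISM 9.44% and 11.9%, and genomic 3.78% and 5.0%.

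**Figure D3:**
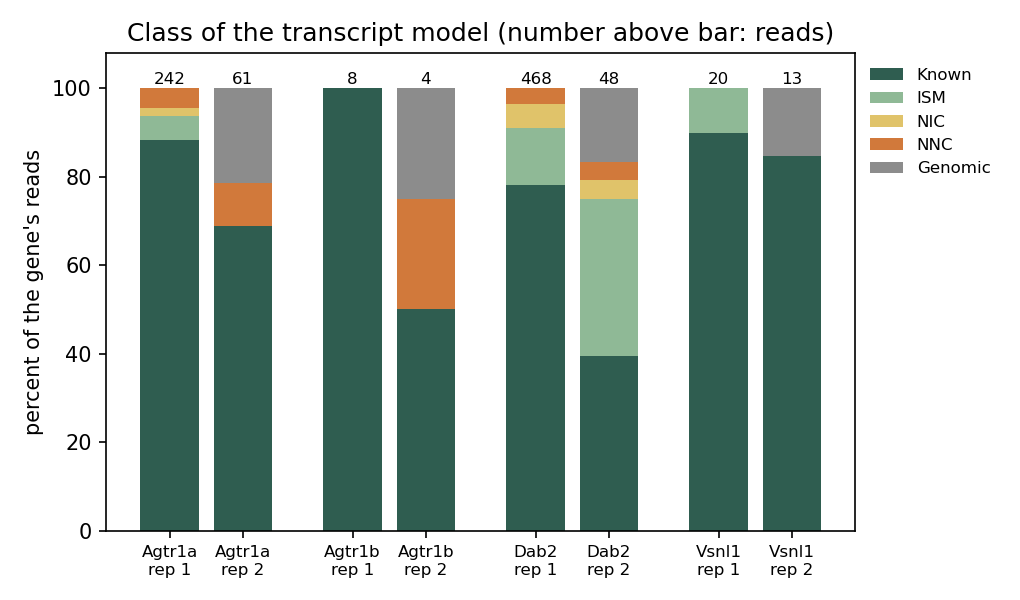
Share of each gene's reads by class of transcript model, in percent, for each library, with the number of reads above each bar. The known share of Dab2 was 78.2% in replicate 1 and 39.6% in replicate 2, and genomic reads appear in replicate 2 only, for each of the 4 genes. For Agtr1a and Dab2, replicate 1 held similar single-exon reads in the ISM class.

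Agtr1a reads fell into 22 intron chains, of which 15 had a single read and 2 occurred in both libraries. The leading chain, Agtr1a-201, joins a pair of 5′ noncoding exons to the coding exon, and held 211 of 242 reads (87.2%) and 42 of 61 (68.9%). Its share differed between libraries (p = 0.00158, adjusted p = 0.0169 over 5612 genes with at least 20 reads in each, Fisher's exact test). Of these genes, 10.1% were called lower in replicate 2 at an adjusted p under 0.05. The median change in share over them was -3.48 percentage points. With genomic and ISM models left out the shares of Agtr1a-201 were 92.1% and 87.5% and missed the threshold (adjusted p = 0.930, Fisher's exact test). The next structures were the coding exon alone, with 11 and 13 reads. The 2-exon chain that begins at a new first exon at base 30346445 of chromosome 13 had 0 and 4 reads. Another chain, which joins 3 exons and ends at base 30370716, before the coding exon, had 1 and 2 reads. At least 1 extra exon before the coding exon was seen in 9 reads (3.72%) of replicate 1 and 0 of replicate 2, and 2 such 4-exon chains had 2 reads each. By the exons of the models, the whole receptor coding region was covered by 234 of 242 reads (96.7%) and 46 of 61 (75.4%). The 13 genomic reads of replicate 2 fell in 1 model that starts at base 30380997, past the coding start at 30380954. The 11 single-exon reads of replicate 1 fell in an ISM model that starts at base 30380902. The difference thus rests largely on the recorded start of 1 model, and the ends of single reads were not tested.

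Vsnl1 reads were simpler. Vsnl1-201 held 18 of 20 reads and 11 of 13. The other 2 reads in replicate 1 were an ISM chain of 3 exons that lacks the first exon, and in replicate 2 they were genomic. The alternative first exon of Vsnl1-202 had 0 reads in both libraries. By the exons of the models, the whole coding region of 573 bases was covered by 20 of 20 reads and 11 of 13.

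Dab2 reads fell into 53 chains, of which 34 had a single read and 8 occurred in both libraries. The protein comes in a long form and a short form. The long form holds a central stretch, absent from the short form, that binds clathrin and AP-2. In GENCODE M21 the long and short transcripts differ by exon 10 of Dab2-202 (mm10 chr15:6429296-6429949), 654 bases or 218 codons, whose removal takes the coding region from 766 to 548 codons. Exon 9 (chr15:6424635-6424697), of 63 bases or 21 codons, can also be skipped. The junctions that tell the forms apart are shown from Dab2-202 and Dab2-203 of GENCODE M21. Capitals mark exon 10 in the long form and exon 9 in the last line, which has 20 bases of each neighbouring exon.
Long form, entry to exon 10: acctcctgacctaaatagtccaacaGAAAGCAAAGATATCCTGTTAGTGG
Long form, exit from exon 10: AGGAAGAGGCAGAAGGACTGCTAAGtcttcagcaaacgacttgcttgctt
Short form, exon 10 skipped: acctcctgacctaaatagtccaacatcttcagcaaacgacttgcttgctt
Exon 9: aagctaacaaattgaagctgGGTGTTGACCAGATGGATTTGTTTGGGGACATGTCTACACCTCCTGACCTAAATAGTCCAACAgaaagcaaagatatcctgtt

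The long form led in replicate 1 and not in replicate 2. Exon 10 was included in 335 reads and skipped in 82 in replicate 1, or inclusion in 80.3% of 417 reads that span it (95% exact interval 76.2 to 84.0%). In replicate 2 it was included in 8 reads and skipped in 11, or 42.1% of 19 (20.3 to 66.5%). The shares differed between libraries (p = 0.000405, adjusted p = 0.00114 over 14 tests of Dab2 exons and read ends, Fisher's exact test), and the mean was 61.2% ± 27.0 (SD, n = 2). With known models alone they were 79.8% and 38.9%. The 51 and 29 reads whose models did not span exon 10 were left out. Inclusion takes both junctions of the exon and skipping a single intron, so a read that starts in exon 10 counts as neither. Among those left out were ISM chains that start at base 6429296, the first of exon 10, with 11 and 2 reads and with 6 and 0. Their part in the shares was not tested. The annotated long transcript measures 4663 bases and the short one 2754, and replicate 2 held fewer reads of long transcripts in general, as given above. The part of length in this share was not tested.

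For exons 7 and 9 the difference between libraries missed the threshold. Exon 9 was included in 375 of 418 reads (89.7%) and 19 of 21 (90.5%; p = 1, Fisher's exact test), with an interval of 69.6 to 98.8% in replicate 2. Exon 7, of 27 bases, was included in 97.7% and 96.4% (p = 0.505, Fisher's exact test). Of 413 reads of replicate 1 that span exons 9 and 10, 300 held both, 70 held exon 9 alone, 33 exon 10 alone, and 10 neither. Use of the 2 exons was not associated beyond counting error (p = 0.540, Fisher's exact test on reads of 1 library). In replicate 2 the counts were 7, 11, 1 and 0. By annotated transcript, Dab2-202 (both exons) had 264 and 6 reads, Dab2-203 (exon 9 alone) 64 and 11, Dab2-204 (exon 10 alone) 28 and 1, and Dab2-211 (neither) 10 and 0.

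The leading Dab2 chain held 56.4% of reads in replicate 1 and 12.5% in replicate 2 (adjusted p = 1.4e-07 over 5612 genes, Fisher's exact test; background 10.1% as above), and 65 of those genes (1.16%) fell by as much. With genomic and ISM models left out the shares were 64.7% and 26.1% (adjusted p = 0.0301 over 4567 genes). By the exons of their models, reads of replicate 2 covered less of the gene. The span from start to stop codon was covered by 410 of 468 reads (87.6%) and 19 of 48 (39.6%; adjusted p = 6.5e-12 over the 14 tests, Fisher's exact test). A first exon upstream of the start codon was present in 91.0% and 66.7%, and the last exon in 96.2% and 68.8%.

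Chains that end in the intron before exon 10, at base 6427765 of chromosome 15, where the annotated transcript Dab2-208 ends, had 18 reads (3.85%) and 12 reads (25.0%; adjusted p = 1.2e-05 over the 14 tests, Fisher's exact test). Among these, an ISM chain of 9 exons had 9 and 6 reads, one of 10 exons 4 and 0, and one of 5 exons 2 and 0. At the 3′ side, ISM chains of 4 exons had 8 and 6 reads, of 5 exons 11 and 2, and of 6 exons 6 and 0, and the last exon alone had 7 ISM reads in replicate 1 and 6 genomic reads in replicate 2. Of the other 2 genomic reads of replicate 2, 1 lay between exons 9 and 10 and ended at base 6427765, and 1 ran for 458 bases from the last base of exon 10. Where a first exon was present, 420 of 426 reads and 32 of 32 used the proximal one, and the distal first exon, the annotated 5′ end of the gene, had 0 reads, which leaves room for up to 0.862% of the 426 by the exact interval. After exon 6, the annotated donor (base 6423166) was used by 402 of 429 reads and 29 of 30. Donors 4, 7 and 20 bases further on had 17, 3 and 7 reads in replicate 1, and the donor 20 bases on had the single other read of replicate 2. The NIC chain of 15 exons with 13 reads and that of 14 exons with 5 reads had 0 reads in replicate 2. The other 5 chains with more than 1 read had 2 or 3 reads each.

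**Figure D4:**
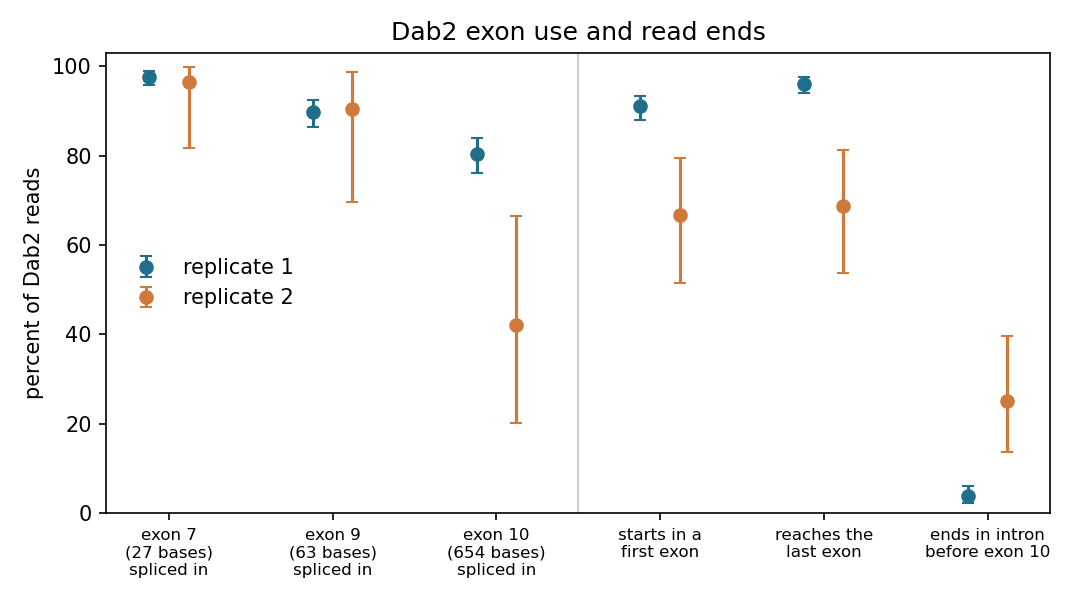
Left, percent of spanning Dab2 reads that include exons 7, 9 and 10. Right, percent of all Dab2 reads that start in a first exon, reach the last exon, or end in the intron before exon 10. Points are single libraries and bars are 95% exact binomial intervals. Exon 10 (80.3% and 42.1%) and the read ends differ between libraries, while the points of exons 7 and 9 lie close together.

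The first exon of Agtr1b, chr3:20367034-20367177, was spliced both to the receptor coding exon and to another gene. This structure was found after the values were seen. The 250 bases before that exon are the candidate promoter and are shown because the models below start at this exon (RefSeq annotation of GRCm38.p6, chr3:20367178-20367427, minus strand, 5′ to 3′). Capitals mark TATAAA, the core of a TATA box.
Agtr1b promoter: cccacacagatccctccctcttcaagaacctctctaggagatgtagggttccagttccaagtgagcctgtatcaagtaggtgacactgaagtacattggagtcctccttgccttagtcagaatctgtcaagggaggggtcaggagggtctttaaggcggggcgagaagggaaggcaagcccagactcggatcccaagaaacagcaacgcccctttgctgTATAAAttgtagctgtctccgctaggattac
The match begins 31 bases before the start. TATAAA on the sense strand is found in 7.59% of 32851 promoters of this length, and on either strand in 12.4%. The 2 entries of Dab2 and the 2 of Vsnl1 hold it on neither strand. AAGGTCA, a half-site bound by nuclear receptors such as Nr5a1, was in none of these 5 windows on either strand, beside 4.08% of all promoters. A match is a string of letters and not a measured binding site. Agtr1a was not matched in this table.

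In replicate 1, 19 spliced reads had a model that starts in this exon. Of these, 8 (42.1%, exact interval 20.3 to 66.5%) went on to the receptor coding exon and 11 to exons of Cpb1, without the receptor exon. In replicate 2 there were 11 such reads, of which 3 (27.3%, 6.02 to 61.0%) went to the receptor, 7 to Cpb1 and 1 to neither. The split between receptor and Cpb1 did not differ between libraries beyond counting error (p = 0.694, Fisher's exact test). Cpb1 (chr3:20248264-20275733) encodes carboxypeptidase B1, a digestive enzyme of the exocrine pancreas, and lies on the same strand, 91301 bases downstream of the exon.

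These reads were assigned to Cpb1 in the deposited tables and are not in the Agtr1b counts above. Cpb1 had 13 and 10 reads, and 1 read in each library was of its known transcript. Of the 11 and 7 reads from the Agtr1b exon, 10 and 6 covered the whole Cpb1 coding region of 1245 bases with its annotated introns. They made up 11 chains, of which 3 were seen in both libraries. Between the genes they used 4 exons that GENCODE M21 does not give to either gene: chr3:20290097-20290185 (89 bases; 8 and 6 reads), chr3:20286014-20286085 (72 bases; 9 and 5 reads), chr3:20285493-20285522 (30 bases; 7 and 4 reads) and chr3:20276703-20276845 (143 bases; 6 and 3 reads). The Agtr1b exon was joined directly to the Cpb1 exon with the start codon in 2 reads and 1 read. Both libraries thus held the structure.

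**Figure D5:**
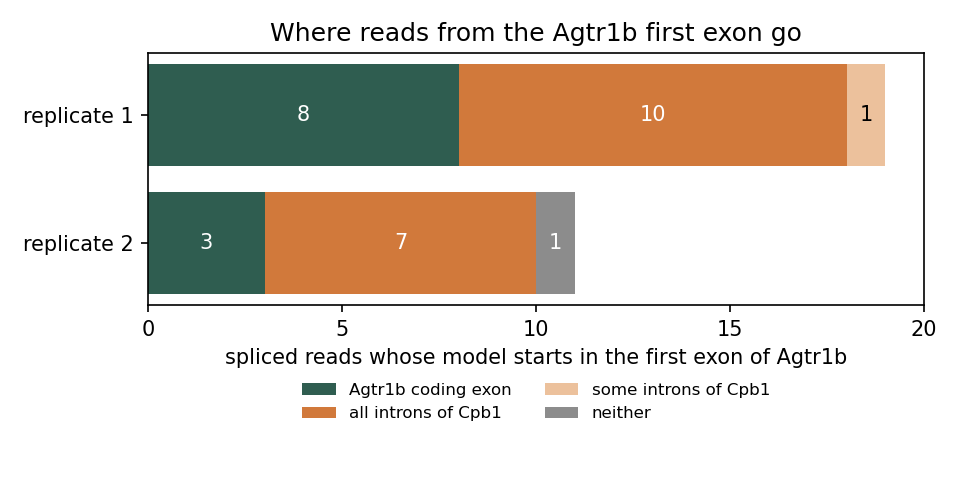
Number of spliced reads whose model starts in the Agtr1b first exon, by where they went, for each library. Reads went to Cpb1 (11 of 19 and 7 of 11) and to the receptor coding exon (8 of 19 and 3 of 11) in both, and the intervals of these shares are wide.

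Reads on the opposite strand of the members, in loci outside annotated genes, were counted as well, by the strand of the deposited model. The Agtr1a locus had 21 in each library, 3 of them spliced in replicate 2, beside 242 and 61 sense reads. The Dab2 locus had 18 and 39, none of them spliced, beside 468 and 48. The Agtr1b locus had 2 in each, and the Vsnl1 locus had 0.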

How the data were processed

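For each library the authors deposited raw counts of reads for every transcript model, and the exons of each model. The build is mm10, annotated with GENCODE M21, per the file headers. Aligner and versions are not given in the sources used. Known models carry annotated ends, so the true ends of their reads are not shown.

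Gene counts are sums over models, divided by reads in annotated mouse genes, leaving out spike-ins (1.39% and 1.33% of reads) and other loci. Genes were compared by a two-sided Fisher's exact test (SciPy 1.17.1) of a gene's reads against the rest, Benjamini-Hochberg adjusted over genes with 10 or more reads in total (threshold 0.05). A prior of 0.5 reads entered the log2 ratios. Such a test compares libraries, not conditions. Intervals are 95% Clopper-Pearson. Whether PCR copies were merged is not known, so intervals and limits cover counting error only. Models with the same strand and introns were treated as 1 chain, and single-exon models were grouped by class. The share of the leading chain was adjusted over all genes tested and not, as first planned, over the members. An exon counted as spliced in when a model had both of its junctions. An unannotated exon is given where reads of both libraries used it at least 2 times.

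Scaling alternatives were TMM (edgeR 4.0.16) and size factors (DESeq2 1.42.0). The members and the 5 pathway and 12 marker lists were chosen with earlier results of these data known. Named are the 4 members with chains of at least 2 reads, the highest genes of each list, Cyp11b2, Hsd3b6, Agtr2, Ren1, Agt and Ace, and the 3 genes nearest each member (pseudocount 1 CPM). A few list genes are not reported here. Other genes of the lists, Cpb1 and the opposite-strand loci were named after their values were seen. RefSeq promoters matched 3 of the 4 members. The liver sinusoid markers summed to 10.6 and 36.3 CPM, smooth muscle and pericyte 311 and 113, endothelium 958 and 731, adipocyte 3739 and 2618, and kidney 0 and 1.65.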

Additional observations from a re-analysis of the deposited data

How the results depend on the processing

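No paired analysis was possible because there is 1 group with 2 libraries, and nothing to pair. Agtr1a and Dab2 stayed lower in replicate 2 under all 12 alternatives each, with log2 ratios of -3.00 to -2.26 and -4.89 to -3.55. Some of the 12 could hardly change this: the minimum of reads does not enter the ratio, and the prior does not enter Fisher's exact test. Agtr1b passed the threshold with known models only (-2.43, adjusted p = 0.0438, Fisher's exact test) and in none of the other 10. Vsnl1 missed it with TMM factors (-0.94), DESeq2 size factors (-0.88), genes over 10-fold different left out of the total (-0.93), ISM models left out (-1.10), replicate 2 thinned (-1.27), no minimum of reads (-1.29) and an assumed coefficient of variation of 0.2 (-1.29). Genes called lower in replicate 2 numbered 2876, and 1563, 1387, 1395 and 760 with TMM, size factors, 10-fold genes left out and the assumed variation. Genes called higher numbered 1307, and 2015, 2193 and 611 with TMM, size factors and the assumed variation. Lower calls were thus 68.8% of all calls, but 43.7% with TMM, 38.7% with size factors and 49.0% with 10-fold genes left out. In this last setting the genes over 10-fold different, members excepted, were also not tested. Its counts thus cover fewer genes and do not show scaling alone. Lower calls besides the members ranged over the alternatives from 1 to 4 in the renin-angiotensin list, 8 to 16 in the Gq list, 3 to 6 among glomerulosa markers, 1 to 3 among calcium sensors and 4 to 17 among Dab2 partners. Higher calls ranged from 0 to 1, 1 to 3, 0 to 0, 0 to 0 and 0 to 3 in the same order. The 0 of the renin-angiotensin list came only with 10-fold genes left out, where Agt was not tested. The leading chain of Agtr1a fell by 18.3 percentage points, and fell by 4.64 with genomic and ISM models left out, which missed the threshold. Its mean share was 99.3% with known models only, and that of Vsnl1 was 100% with known models or without genomic and ISM models and 95.0% without single-read models. Dab2 to Agtr1a in replicate 2 was 0.452 with known models and 0.479 without genomic and ISM models, so the interval then lay below 1. In the same order, Vsnl1 to Agtr1b in replicate 1 was 2.25 and 2.25 and Dab2 to Vsnl1 in replicate 2 was 1.73 and 2.09, with intervals that held 1, as did that of Vsnl1 to Agtr1b in replicate 2 without genomic and ISM models (3.67). The cause of these changes was not tested. Leaving out 1 library gave 50.4 to 322 CPM for Agtr1a, 3.30 to 10.6 for Agtr1b, 39.6 to 622 for Dab2, 10.7 to 26.6 for Vsnl1, and 42.1% to 80.3% for exon 10 of Dab2. Depth limits Agtr1b, Vsnl1 and the 19 spanning Dab2 reads of replicate 2.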
